A study of Drosophila melanogaster with 8 samples.

Results

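The dFOXO regions described here lie in the 5' part of long genes in *chico* heterozygotes. Of the 1331 distinct regions that the authors listed for this genotype, 197 (14.8%) were chosen, each a region whose first listed gene has a length of 10 kb or more and holds the region in its 5' part, nearer to its 5' end than to its 3' end. The choice used position and gene length only, and not the amount of dFOXO. The genes were 197 different ones, from 10003 bp (*CG10543*) to 164529 bp long, with a median of 22892 bp.

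The study mapped DNA bound by dFOXO, the only FOXO transcription factor of the fly, by chromatin immunoprecipitation and sequencing (ChIP-Seq) in whole adult females aged 15 days. The *chico* flies carried 1 copy of the mutation *chico1* (y1; cn1 chico1/cn1; ry506). The other flies were IPC-ablated, with *Dilp2-GS-Gal4* driving the cell death gene *reaper* (*UAS-rpr*) in the insulin-producing cells (IPCs) of the brain while RU486 was fed for 15 days. Each of these 2 genotypes had 2 samples of ChIP DNA, precipitated with an anti-dFOXO antibody, and 2 of input DNA, 8 samples in all, each from many pooled flies. Flies with normal insulin signaling were not among these samples. Since whole flies were used, the tissue in which dFOXO was bound cannot be told, and binding in more cells cannot be told apart from stronger binding per cell.

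*chico* encodes the insulin receptor substrate of the fly. When insulin binds its receptor, a kinase cascade through PI3 kinase, Pk61C (the fly PDK) and Akt phosphorylates dFOXO and holds it in the cytoplasm. When the signal is low, dFOXO enters the nucleus, where it binds short forkhead motifs. It switches its target genes on or off, among them genes for stress resistance, metabolism and growth control. In long genes the promoter at the 5' end is far from most of the transcribed DNA, and the first introns often hold further regulatory elements.

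Each region had 1 value of ChIP tags and 1 of input tags, because the replicates were pooled before regions were called. Enrichment divides the ChIP tags of a region by its input tags after scaling to the ChIP library, and its interval is a 95% exact binomial (Clopper-Pearson) interval, which covers counting error only. The members held 369 to 1871 ChIP tags (median 660) and 232 to 1686 scaled input tags (median 566). No error between replicates can be given. All regions were in the list because PeakSeq had found more ChIP than input tags there, so the test of ChIP over input was run on regions already selected for that contrast.

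ChIP-PCR primers of the study are shown for 3 members, *puc*, *Pk61C* and *RhoGAP18B*, because they are the DNA by which binding at these genes was assayed apart from sequencing. Their places relative to the regions were not looked up here. They are printed 5' to 3' in lower case, with no base marked.
*puc*, forward: tgtatgtgtgtagtgtgagcgcgt
*puc*, reverse: cgttgccgttgtagtgttgttgct
*Pk61C*, forward: tcaaagtctcgcccgaccatagtt
*Pk61C*, reverse: tatgggtgtgtgtgtgtgcgtagt
*RhoGAP18B*, forward: aaatcgctggcgaaactgaaaccg
*RhoGAP18B*, reverse: atcaacggttatcggcgaaggaga

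The first question was at which of these long genes dFOXO was enriched over input. Most members showed a small excess of ChIP tags, and a minority showed a large one. Their median enrichment was 1.11, with an interquartile range of 1.09 to 1.16, beside a median of 1.10 over all *chico* regions. The largest was 2.52 at *Tob* and the smallest 1.07 at *sdk*. By the exact one-sided binomial test with Benjamini-Hochberg adjustment, 20 of 197 members (10.2%) passed at 0.01, beside 2.7% of all *chico* regions. These 20 made up 55.6% of the 36 passing regions of the list, although the members were 14.8% of its regions. At an unadjusted p under 0.05 the members (125, or 63.5%) were close to the list (61.4%). An enrichment of 1.2 or more was found in 31 members (15.7%), beside 5.63% of all regions.

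The 5' part of long genes stood out from other places only in the upper part of the distribution. Regions in the 5' part of shorter genes passed in 13 of 410 cases, with a median enrichment of 1.10. In the 3' part of genes of 10 kb or more, 1 of 154 passed. In the 3' part of shorter genes 0 of 332 passed by the exact binomial test, although 194 of them had an unadjusted p under 0.05. Of 205 regions placed upstream of their gene 1 passed, and of 33 placed downstream 1 passed. No test between these classes was run.

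**Figure D1:**
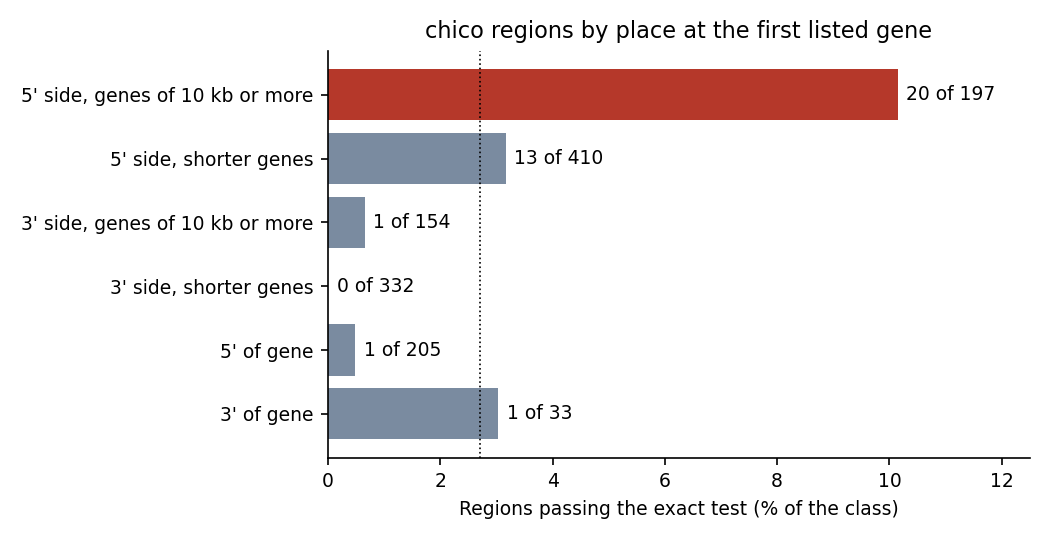
Share of *chico* regions passing the exact binomial test (x axis, % of the class) for each place at the first listed gene (y axis), with the number passing of the number in the class beside each bar and a dotted line at the share of all regions, 2.7%. The red bar, the 5' part of genes of 10 kb or more, reaches 10.2%, and the next bar, the 5' part of shorter genes, 3.17%.

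The strongest regions belonged to genes with different functions. At *Tob*, an antiproliferative protein that in vertebrates recruits the machinery for mRNA deadenylation, 644 ChIP tags stood against 256 scaled input tags (interval 2.17 to 2.92). At *jing*, a zinc finger regulator of tracheal and midline development, 1118 tags stood against 547 (enrichment 2.05). At *rut*, the calcium-responsive adenylyl cyclase known from olfactory learning, 660 tags stood against 337 (1.96). The intervals of *jing* and *rut* overlapped each other, 1.84 to 2.27 and 1.72 to 2.24, so their order is within counting error. At *caps*, a leucine-rich repeat protein of the cell surface used in neuronal target choice, 701 tags stood against 370 (1.89). In the coordinates of the list, whose build is not given in the sources used here, the *Tob* region was X:15985348-15985924, that of *jing* 2R:2388975-2390108, that of *rut* X:14719826-14720463 and that of *caps* 3L:13221439-13222128. All 4 reached over the annotated 5' end of their gene and had their centre upstream of it.

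The next group lay between 1.59 and 1.77, with overlapping intervals. It held *CG6847* (422 against 239 tags), which has the sequence of a lipase, and *CG32521* (669 against 391). *cv-2*, a secreted BMP-binding protein of the wing cross veins, had 690 against 406. *lea*, a Robo-type receptor for the midline repellent Slit, had 596 against 352, and *CG9932*, a zinc finger protein, had 736 against 441. Among these genes the tags differed more than the ratios: *CG9932* had 736 ChIP tags and *dally*, a glypican that carries morphogens, had 369 (against 232 input tags, enrichment 1.59). *LpR2*, a receptor for lipid-carrying lipophorin, reached 1.65 with 475 against 288 tags. *puc*, the phosphatase that restrains JNK signaling, reached 1.61 with 478 against 297.

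The other passing members had smaller ratios. *Pfrx*, the enzyme that sets the activator of phosphofructokinase in glycolysis, had 679 against 442 tags and an enrichment of 1.54. *ctp*, a dynein light chain, had 422 against 280 (1.51), and *wupA*, the troponin I of muscle, had 540 against 361 (1.50). All 3 intervals had a lower bound of 1.29 or more. *Calx*, the sodium-calcium exchanger, had 451 against 312 (1.45). *bnl*, the FGF that guides tracheal branches, had 579 against 421 (1.38), and *Pk61C*, the kinase upstream of Akt in the insulin cascade itself, had 688 against 509 (1.35). *Nmdar2*, a subunit of the NMDA type glutamate receptor, had 945 against 751 (1.26). *RhoGAP18B* had 1299 against 1067 (1.22).

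**Figure D2:**
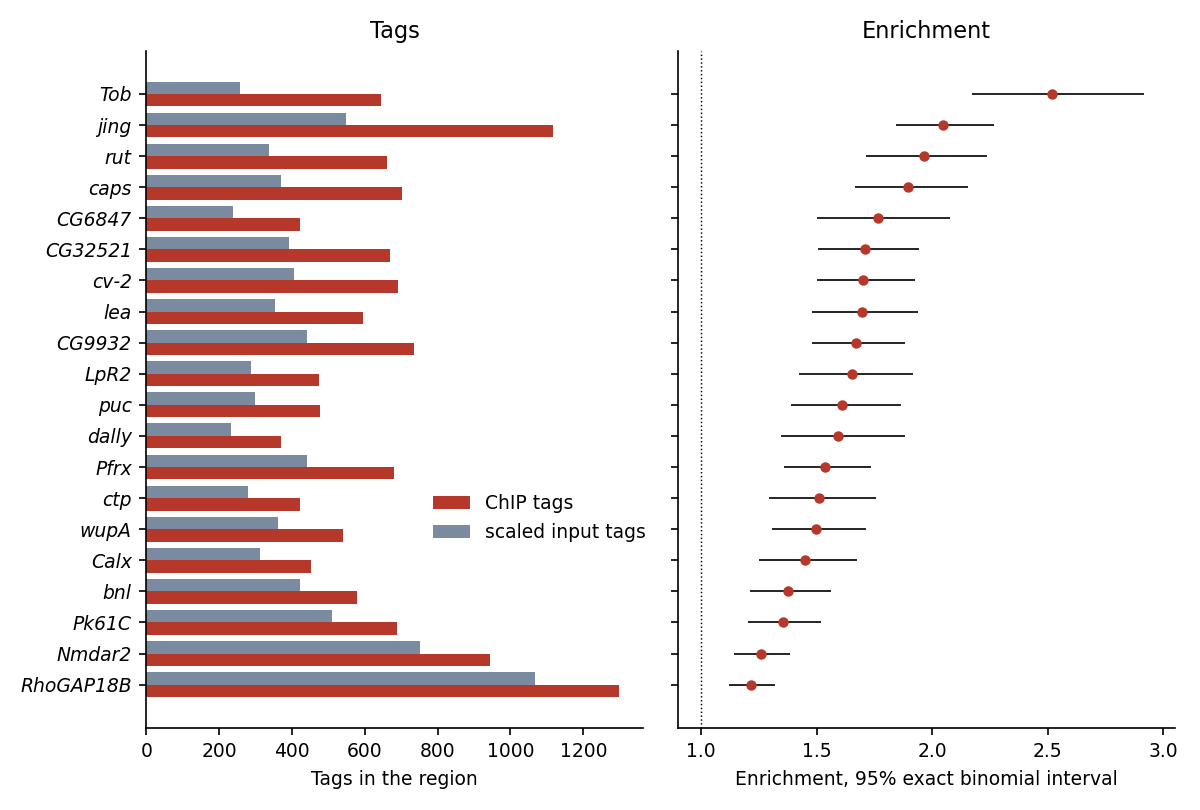
Left, ChIP tags (red) and scaled input tags (gray) in each of the 20 passing regions (x axis, tags; y axis, the region's gene). Right, their enrichment with the 95% exact binomial interval, from 2.52 at *Tob* to 1.22 at *RhoGAP18B*; every interval lies above the dotted line at 1.

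Passing depended on depth as well as on the ratio. *CG14521* had a larger enrichment than *RhoGAP18B*, 1.26, but only 627 against 499 tags and an adjusted p of 0.0462 by the exact binomial test with Benjamini-Hochberg adjustment. In all, 11 members with an enrichment of 1.2 or more did not pass. At the low end, *sdk* (551 against 516 tags), *CG34360* (567 against 530) and *CG42574* (690 against 645) had enrichments of 1.07 each, and their exact unadjusted p was 0.149, 0.139 and 0.114.

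The second question was where along these genes the regions lay. The centres of 77 members (39.1%) were within 1 kb of the 5' end of the gene, read on its own strand, and those of 60 were within 500 bp. The median distance was 1977 bp. Other members lay deep in the gene, with 27 (13.7%) over 10 kb from its 5' end. Nearest were *caps* (6 bp), *CG6847* (8 bp), *Corin* (13 bp), *LpR2* (14 bp) and *RhoGAP100F* (16 bp). Farthest were *heph* (55456 bp), an RNA-binding splicing repressor, *kek5* (54989 bp), *hth* (51395 bp), a homeodomain cofactor, *Glut1* (30885 bp) and *Zasp52* (25641 bp), a protein of the muscle Z band.

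The strong regions were concentrated at the 5' end. Within 1 kb of it 17 of 77 members passed (22.1%), and farther away 3 of 120 (2.5%). The median enrichment was 1.16 for the 60 members within 500 bp, 1.12 for the 17 from 500 to 1000 bp, 1.11 from 1 to 2 kb, 1.10 from 2 to 5 kb and 1.11 from 5 to 10 kb and beyond 10 kb. Among these distance classes the one next to the 5' end was thus the only one with a median above 1.12. Across the 197 members the Spearman correlation of enrichment with distance was -0.29. It was -0.35 for the 77 within 1 kb and 0.10 for the 120 beyond it, and the points share the same ChIP and input libraries. Closeness alone did not go with a large ratio, since *Corin* (646 against 591 tags, enrichment 1.09) and *RhoGAP100F* (537 against 501, 1.07) had small ones 13 and 16 bp from the 5' end. None of the 5 farthest passed: their enrichments were 1.11 at *heph* (798 against 719 tags), 1.11 at *kek5*, 1.09 at *hth*, 1.10 at *Glut1* and 1.10 at *Zasp52*.

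**Figure D3:**
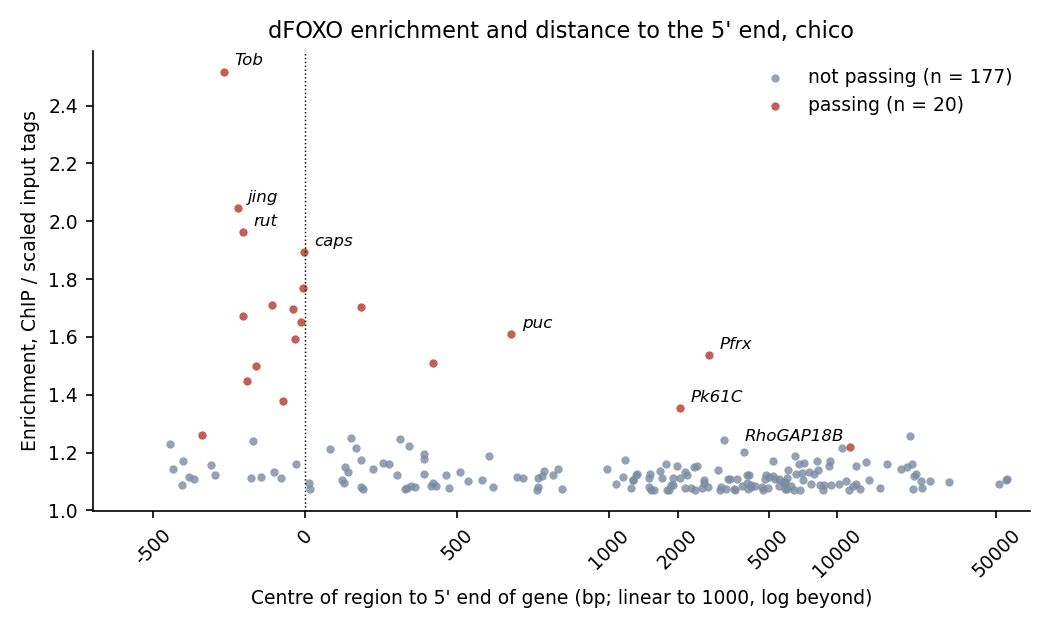
Enrichment (y axis, ChIP over scaled input tags) against the distance of the centre of the region from the 5' end of the gene (x axis, bp, linear to 1000 and logarithmic beyond; negative is upstream) for the 197 members, with the 20 passing ones in red. The dotted line is the 5' end; 17 of the red points lie within 1 kb of it, and *Pk61C*, *Pfrx* and *RhoGAP18B* lie farther inside.

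The side of the 5' end on which a region was centred went with a still larger difference. In 28 members the region reached over the 5' end and had its centre upstream, by at most 444 bp (*CG11299*), and 14 of these passed. All 28 had an unadjusted p under 0.05 by the exact binomial test, and their median enrichment was 1.25. Another 41 members also reached over the 5' end but had their centre downstream of it. Of these 1 passed, *cv-2*, and 24 had an unadjusted p under 0.05; their median enrichment was 1.12. Taken by distance, 32 members were centred 0 to 500 bp downstream, and 2 of them passed, *cv-2* (183 bp) and *ctp* (421 bp). Regions placed upstream of their gene were another class by the rule of choice, in which 1 of 205 passed. The members thus cover only part of the upstream side. The pattern was noticed in these data and was not tested.

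In shorter genes too, passing regions were more frequent next to the 5' end, with 10 of 133 passing within 500 bp. From 500 to 1000 bp 2 of 146 passed, and from 1 to 2 kb 1 of 86. Shorter genes did not show the same imbalance between upstream and downstream centres. Of 37 regions centred up to 500 bp upstream of the 5' end of a gene under 10 kb, 3 passed, with a median enrichment of 1.12. Of 96 centred 0 to 500 bp downstream, 7 passed, with a median of 1.11. Whether the imbalance differs between long and shorter genes was not tested.

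The 14 passing members centred upstream were *Tob* (267 bp), *jing* (223 bp), *rut* (206 bp), *CG9932* (205 bp), *Calx* (192 bp), *wupA* (163 bp), *CG32521* (109 bp), *bnl* (73 bp), *lea* (42 bp), *dally* (35 bp), *LpR2* (14 bp), *CG6847* (8 bp), *caps* (6 bp) and *Nmdar2* (341 bp). Their enrichments ran from 1.26 to 2.52. The 14 others centred upstream, which did not pass, had enrichments from 1.09 (*SIFR*) to 1.24 (*CG6424*), and passing itself rests on these ratios. Among the latter were *Ih* (1.17), a channel opened by hyperpolarization, and *Psc* (1.16), a Polycomb protein.

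Exceptions to the position at the 5' end were few. *puc* was centred 678 bp inside its gene, *Pk61C* 2054 bp and *Pfrx* 2748 bp. The listed regions were 3R:3931419-3932052, 3L:130884-132128 and X:19391875-19392698, in that order. *RhoGAP18B* was centred 11382 bp inside a gene of 29104 bp, and its region was the widest of the passing ones at 1994 bp. These 4 regions did not reach over the annotated 5' end, and neither did that of *ctp*. Starts of transcription other than the listed 5' end were not used here.

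Passing regions were narrow. Their width ran from 515 bp (*dally*) to 1994 bp, with a median of 667 bp, against 809 to 4282 bp and a median of 1342 bp for the other members. Across the 197 members the Spearman correlation of enrichment with width was -0.31, with gene length 0.08 and with scaled input tags per kb -0.02. The ratio is taken over the whole width, so it and the width are not separate measures, and the part of width in the pattern by distance was not tested. Members centred upstream had a median width of 1126.5 bp.

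Gene length within the long genes made little difference to the share passing. It was 7 of 81 for genes of 10 to 20 kb, 6 of 61 for 20 to 40 kb and 7 of 55 for 40 kb or more, with medians of 1.11, 1.11 and 1.12. Just inside the limit of 10 kb were *CG10543* (10003 bp, enrichment 1.11) and *Gyc32E* (10075 bp, 1.11). Just outside were *PR2* (9825 bp, 1.08) and *CG12581* (9821 bp, 1.07).

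By chromosome arm, the largest share of members passing was on X. There 9 of 46 members passed, *Tob*, *rut*, *CG6847*, *CG32521*, *Pfrx*, *ctp*, *wupA*, *Nmdar2* and *RhoGAP18B*, and these were 9 of the 10 passing regions of that arm. On 3L 3 of 19 members passed, on 3R 4 of 56, on 2L 2 of 30, on 2R 2 of 41 and on 4 0 of 5 by the exact binomial test (4 of these 5 had an unadjusted p under 0.05). Over all *chico* regions the share passing was 3.64% on X, 3.29% on 3L, 2.26% on 3R, 1.98% on 2L and 2.88% on 2R, with 0 of 9 on 4, and no test between arms was run. The input was scaled separately for each arm, with factors from 0.847 on 4 to 0.881 on 3L and 0.856 on X, and the part of this scaling in the counts by arm was not tested beyond the alternatives given at the end.

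The third question was what the genes do. Of the 197 genes 82 were in lists of known function, and 115 were in none. The lists were written with results of these data in view, and 63 members have only a CG number as their name in the deposited list. Of those 63, only *CG6847* and *CG9932* were put in a list, and both passed. The counts and medians of the lists thus rest in part on the results themselves. Signaling and metabolic genes had the largest medians, but over only 10 and 6 members. Lists of neuronal or cytoskeletal genes lay near the median of all regions, 1.10. The counts passing in each list stand beside 10.2% of all members and 2.7% of all *chico* regions. *Tob* was counted under both signaling and RNA-binding, and *rut* under both signaling and ion channels. No test between lists was run.

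Cell signaling genes gave 5 passing of 10 members, with a median enrichment of 1.27, and 8 of the 10 were centred within 1 kb of the 5' end. Their leading members were *Tob*, *rut*, *cv-2* and *puc*, followed by *bnl*. *cv-2*, *rut*, *puc* and *bnl* belong to different pathways, namely BMP, cyclic AMP, JNK and FGF signaling, in that order. For *Tob*, the largest value of the list, no pathway is named here. The 5 others ran from *par-1*, a polarity kinase (1.08), to *stet* (1.16), and did not pass.

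Metabolism and transport gave 3 passing of 6, with a median of 1.36. The passing ones were *CG6847*, *LpR2* and *Pfrx*, of lipid breakdown, lipid uptake and glycolysis. *Ncc69*, a cation-chloride cotransporter, had 598 against 509 tags (1.18) and did not pass, nor did *Glut1*, the glucose transporter (1.10), or *Mct1*, a monocarboxylate transporter (1.08).

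Transcription regulators were the longest list, with 20 members, a median of 1.12 and 11 centred within 1 kb. Passing were *jing* and *CG9932*, a share of 2 in 20 that is close to that of all members, 10.2%. *Su(z)2*, a Polycomb group relative of *Psc*, had 1017 against 852 tags (1.19), and *Eip93F*, an ecdysone-induced regulator of cell death, had 615 against 518 (1.19). Their exact binomial p-values adjusted by Benjamini-Hochberg were 0.0459 and 0.401.

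Axon guidance and adhesion gave 3 passing of 14, *caps*, *lea* and *dally*, and a median of 1.12. All 3 were centred within 42 bp of the 5' end on its upstream side. *hig*, a protein of the synaptic cleft, followed at 1.17 (596 against 508 tags). The farthest member of this list was *kek5*.

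Ion channel and synaptic genes gave 2 passing of 19, *rut* and *Nmdar2*, with a median of 1.12. *Rim*, a scaffold of the active zone, had 665 against 535 tags, an enrichment of 1.24 and an adjusted p of 0.053 by the exact binomial test with Benjamini-Hochberg adjustment. The region of *Rim*, 3186 bp inside that gene, is also listed with *CG12347*, whose 5' end is nearer at 891 bp. *Ih* had 738 against 631 tags (1.17).

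Cytoskeletal and small GTPase genes gave 2 passing of 9, *wupA* and *RhoGAP18B*, and a median of 1.09. *cher*, the filamin of the fly, had 644 against 550 tags (1.17), and *Zasp52* 570 against 518 (1.10). RNA-binding genes gave 1 passing of 4. After *Tob* (2.52) came *Rbp9* (1.13), *heph* (1.11) and *bol* (1.07), so 1 large value stood beside 3 small ones, with a median of 1.12.

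Genes that the study took up as candidates were represented by 7 members. They were chosen in part for strong binding in these samples, so their values are not independent evidence. *cv-2*, *puc*, *Pk61C* and *RhoGAP18B* passed. *sca*, a fibrinogen-related regulator of Notch signaling, had 809 against 666 tags (1.22), and *par-1* had 1.08. *Su(z)2* lay between them, and these 3 did not pass. By ChIP with gene-specific PCR, the paper reports more dFOXO than in wildtype at all its candidates in both insulin mutants. That contrast with wildtype is another one than ChIP over input, and it could not be made here. The paper also reports dFOXO binding at *puc* in both genotypes, while the IPC list used here did not name *puc*.

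Assignment to a gene was not always single. In 37 members further genes were listed for the same region, and in 9 of these a further gene had a 5' end nearer to the centre. None of the 9 passed by the exact binomial test. They were the regions of *Rim*, *T48*, *CG42400*, *prom*, *CG18445*, *Rgk3*, *CG33181*, *par-1* and *Dif*. At *par-1* the 5' end of *mei-W68* was 4184 bp from the centre and that of *par-1* itself 4205 bp.

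The last question was whether the same places were listed for IPC-ablated flies. Of the members 20 (10.2%) overlapped a region of the IPC list, against 82 of all *chico* regions (6.16%). All 20 lay wholly inside the IPC region, which was 2118 to 39991 bp wide, while the members themselves were 933 to 2147 bp wide. The ChIP excess in the IPC regions was small, with enrichments of 1.00 to 1.21 and a median of 1.02, the same as over all 763 IPC regions to 2 decimals. By the exact binomial test with Benjamini-Hochberg adjustment over the listed IPC regions, 1 of the 20 IPC regions passed at 0.01, beside 0.655% of all. With IPC input tags lowered by 5% it was 14 of the 20, beside 41.3% of all, and with them raised by 5% it was 0 of the 20 and 0 of all 763. At an unadjusted p under 0.05 it was 3, *oc*, *Hs3st-A* and that of *Rx*, or 15%, beside 14.8% of all.

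Of the 20 passing members 1 (5%), *jing*, overlapped an IPC region, a share close to the 6.16% of all *chico* regions. At *jing* the ratios of both lists were far apart. In *chico* flies its region of 1134 bp held 1118 ChIP tags against 547. The IPC region around it, 7912 bp wide, held 2967 against 2891, an enrichment of 1.03 (interval 0.975 to 1.08). These ratios cover different widths, and the tags of the IPC libraries within the narrow region were not analysed here, so the difference between genotypes was not tested.

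At *oc*, a homeodomain regulator of head development, the order was the opposite. The *chico* region had 585 against 525 tags (1.12), with an interval of 0.989 to 1.26, and did not pass. The IPC region, 2118 bp wide, had 960 against 796 tags (1.21, interval 1.10 to 1.33) and an adjusted p of 0.00757 by the exact binomial test with Benjamini-Hochberg adjustment. The centres were 8 bp apart, and the intervals of both ratios overlapped.

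The others with the largest *chico* enrichments had IPC ratios near 1. *CG11299* had 1.23 in *chico* flies and 1.01 in an IPC region of 37313 bp. *sca* had 1.22 and 1.01, and *CG8170* had 1.19 and 1.05. *brp*, a core protein of the active zone, had 1.17 and 1.00, the latter over the widest of these regions at 39991 bp. *tup*, a LIM homeodomain protein, had 1.15 and 1.00. *Hs3st-A*, a heparan sulfate sulfotransferase, had 1.14 and 1.05, and *rdgA*, a diacylglycerol kinase of the eye, had 1.14 and 1.02. In each of these the *chico* ratio was the larger, over a narrower region. They were picked by the *chico* ratio, and the ratios of the *chico* list start at 1.07, while the IPC list has a median of 1.02. This direction was thus favored by the choice, and no difference between genotypes was tested. The intervals of both ratios were apart at *CG11299*, *sca* and *brp* and overlapped at *CG8170*, *tup*, *Hs3st-A* and *rdgA*.

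**Figure D4:**
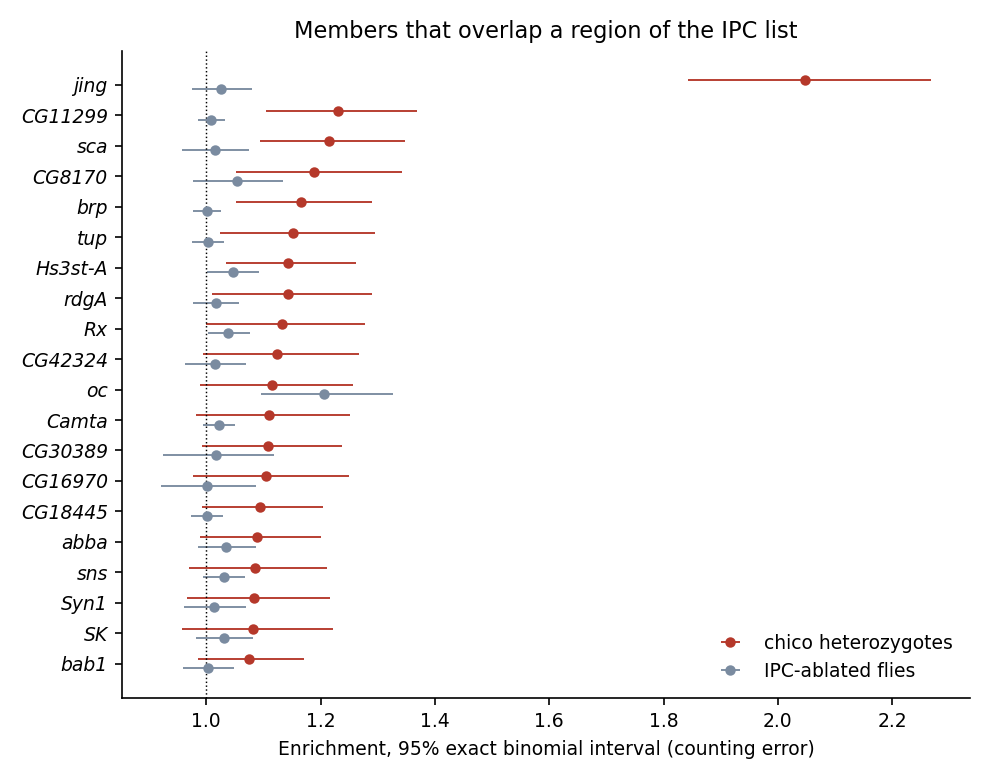
Enrichment (x axis) with 95% exact binomial intervals for the 20 members that overlap an IPC region, in *chico* heterozygotes (red) and over the whole wider IPC region in IPC-ablated flies (gray), by gene (y axis). *jing* lies at 2.05 in *chico* and 1.03 in the IPC list, and *oc* is the gene with the larger IPC value.

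Overlaps fell where the IPC list was dense. On 2R, with 324 of the 763 IPC regions, 12 of 41 members overlapped one. On 3R, with only 20 IPC regions, 0 of 56 members did. The overlaps of all *chico* regions by arm are not given here, so these counts cannot be read as a trait of the members. By centre, 11 members (5.58%) lay within 500 bp of the centre given for an IPC region, against 41 of all *chico* regions (3.08%). With the midpoint of the IPC region in place of its listed centre, only 5 members did, and the count over all *chico* regions is not given here.

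More genes than regions were shared. The IPC list named 58 of the 197 genes (29.4%), which are 5.73% of its genes. Of all genes of the *chico* list it named 12.4%. In 20 of the 58 the regions of both lists overlapped, and in the others the centres were 1533 to 46946 bp apart, with a median of 11856 bp. Of the 20 passing members 3 (15%), *jing*, *lea* and *dally*, were named. The IPC region of *lea* lay 44771 bp from its 5' end, beyond the 3' end, with 1488 against 1477 tags (1.01). That of *dally* lay 10504 bp inside the gene, with 1641 against 1633 tags (1.01). At both genes the place listed in IPC-ablated flies was another one than the 5' end listed in *chico* flies. Each gene occurs once in the *chico* list, and if the IPC list is built alike, a further region at the 5' end would not show. The tags of the IPC libraries at these 5' ends were not analysed here. Longer genes and wider regions give more chances of sharing, and their part in these counts was not tested.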

How the data were processed

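dFOXO ChIP and input DNA were sequenced from 2 genotypes, with 2 replicates each. The authors pooled the reads of replicates, aligned them with Bowtie to a fly genome whose build is not given in the sources used here, called regions with PeakSeq (FDR 0.01) and listed the genes within 5 kb of each centre. Per the submitters' processing notes, base calling used CASAVA 1.6.

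The deposited ChIP tags are raw counts of each region. The input tags that the authors give are treated as a score, since counts were multiplied by a factor for each arm and rounded up. The enrichment column, also deposited, is a ratio that divides ChIP tags by the scaled input before rounding. The authors' p-value and adjusted p-value of ChIP over input, with their rank, were used only to find the number of candidate regions (26819); their values are not given here.

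Each region was counted once, with the gene of lowest order in the list. In 198 regions several genes shared the lowest order, and the first in the list was used. Each of the 2042 identifiers of the *chico* list occurred once, so the number of regions per gene cannot be read. Distances run from the listed centre to the 5' end by strand. Of the members 187 matched a RefSeq gene table of Release 6, used for names only. An exact one-sided binomial test of ChIP against scaled input tags, with equal probabilities, was run over all listed regions. It was adjusted by Benjamini-Hochberg over the 26819 candidates (*chico*) or the 763 listed regions (IPC). For *chico*, ranks were counted among the 1331 listed regions only, although the authors' ranks ran up to 5129. The adjusted p-values can thus be larger than with ranks over all candidates. The test was also run on simulated counts, with planted ratios larger than those of most members and adjustment over the listed regions only. The simulation had no prior selection of regions, so it does not show how the test performs on these regions.

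The members, gene lists and rules were chosen with earlier results of these data known. Genes were named by a rule: the 12 largest enrichments, all that passed, the 3 smallest, the 5 nearest to and 5 farthest from the 5' end, 8 overlaps with the IPC list, the study's candidates, the 4 largest in each gene list, the 2 regions on each side of the length limit, and genes with 3 or more member regions (none). *CG14521*, *oc*, *Rx*, *SIFR*, *CG6424*, *Psc*, *stet*, *Mct1*, the further genes of shared regions and the neighbours were named after their values were seen. Motifs in the regions were not analysed here. Tests were run with SciPy 1.17.1 and tables with pandas 2.3.3 in Python 3.11.15, and plots were drawn with Matplotlib 3.10.9.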

Additional observations from a re-analysis of the deposited data

How the results depend on the processing

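No paired analysis was possible because the replicates were pooled in the deposited lists, and for the same reason no replicate could be left out. The count of passing members turned most on the input scaling: it was 37, not 20, with scaled input tags lowered by 5% (142 of all regions then passed, 10.7%), and 17 with them raised by 5% (24 of all, 1.8%), when *bnl*, *Nmdar2* and *RhoGAP18B* were lost. Of those within 1 kb 26 passed with the lowered input. The other settings gave 18 to 30, the latter with adjustment over the listed regions only. With input tags before scaling, and the arm's factor as the expected ratio, 20 members and 38 of all regions (2.85%) passed. For the rest, and for those within 1 kb, no count over all regions is given here. IPC regions overlapping a member passed in 14 cases with lowered input (41.3% of all IPC regions then passed) and 0 with raised input (0 of all) by the exact binomial test, against 1. Members numbered 303 with genes of 5000 bp or more and 116 with 20000 bp or more, and 183 to 207 under other ways of choosing the gene. Overlaps with the IPC list fell from 20 to 11 by centres within 500 bp and to 8 with IPC regions of at most 10 kb. For the latter setting the count over all *chico* regions is not given here. The changes of the IPC input, the effect of the scaling on the count within 1 kb, the highest arm factor on every arm and the treatment of tied genes were chosen after seeing the data. The median enrichment stayed at 1.11 in all 3 alternatives tried. Among these, taking 1 region per gene could not change it, since each gene occurred once.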

Other observations

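Other *chico* regions lay inside long genes of the members but were listed under another gene. There were 19 of them in 16 genes, and in 13 of the 19 pairs the enrichment was lower than that of the member. None passed by the exact binomial test. In *jing*, one was 98103 bp from the 5' end (listed with *CG15233*, 547 against 488 tags, enrichment 1.12) and one was 108892 bp from it (listed with *CG15234*, 614 against 547 tags, 1.12), beside 2.05 at the 5' end. In *Hs3st-A* a region 28054 bp from the 5' end, listed with *CG17821*, had 630 against 507 tags and the larger ratio, 1.24 against 1.14. Few members were close to each other. The centres of *CG12814* and *Syn* were 5883 bp apart, those of *Teh1* and *CG34360* 10483 bp and those of the Polycomb group genes *Psc* and *Su(z)2* 15896 bp.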
